A study of Mus musculus with 6 samples.

Results

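The genes described here encode the initiation and elongation factors of cytosolic translation, together with the kinases, binding proteins and methyltransferases that carry an *Eif* or *Eef* name. They were taken from the table as protein-coding genes outside the Y chromosome whose symbol starts with Eif or Eef and a digit, which gave 64 of 17145 genes. Of these, 52 had at least 10 UMIs over the 6 libraries and were tested, among 7665 genes tested in all. The other 12 held at most 9 UMIs each.

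The libraries came from hearts of Ndufs6 knockdown mice (FS6KD), in which a gene-trap insertion lowers a subunit of respiratory chain complex I, so that both groups carry the same lesion and no wild-type heart was compared. Fresh-frozen sections were stained for Atf3, a stress-induced transcription factor, and Atf3 high and Atf3 low areas were irradiated with ultraviolet light, which frees the caged primers of photo-isolation chemistry so that only cDNA of the lit area is amplified. Each group had 3 libraries, the labels give the mice as female and the cells as cardiomyocytes, and the age of these mice is not given in the sources used here. All were made by CEL-seq2, which tags every cDNA molecule with a unique molecular identifier (UMI) so that amplified copies are counted once. Whether the high and low areas came from the same hearts is not given either, and p-values measure the spread between these libraries.

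Translation begins when eIF2 brings the initiator tRNA to the small ribosomal subunit, eIF3 holds the complex together, and eIF4E, eIF4G and eIF4A load it on the capped messenger. Elongation then runs on eEF1A, which delivers aminoacyl-tRNAs, and eEF2, which moves the ribosome along. Initiation is braked at a pair of well-known points: stress kinases phosphorylate the alpha subunit of eIF2, which blocks its exchange factor eIF2B while favouring messengers such as that of ATF4, and 4E-binding proteins hold eIF4E away from eIF4G when mTORC1 is inactive. In heart muscle, protein synthesis is tied to growth and energy supply, and respiratory chain defects are known to engage the eIF2 branch.

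The libraries held between 81117 and 210588 UMIs (Atf3 high) and between 81917 and 171536 (Atf3 low), and a gene with no UMI could have reached the level of 3 UMIs, between 14.0 and 40.9 CPM after normalization (counting error only). All 8 cardiomyocyte markers had UMIs in every library, and their summed level ran from 22724 to 40876 CPM in Atf3 high, compared with 36838 to 49929 for the Atf3 low areas. Markers of fibroblasts summed to between 1002 and 5009 against 415 and 2157 CPM, those of endothelial cells to between 1220 and 1520 against 769 and 1283, those of mural cells to between 284 and 757 against 146 and 490, and those of macrophages to between 128 and 325 against 192 and 311. Among these 4 lists of 7 markers each, the ones without a UMI in some libraries were *Tcf21*, *Pdgfra*, *Cd163*, *Adgre1*, *C1qb*, *Cd68*, *Csf1r*, *Cspg4*, *Acta2*, *Tagln*, *Myh11* and *Kcnj8*. The 2 erythrocyte markers analysed, *Hba-a2* and *Hbb-bs*, summed to 160 CPM at most. *Atf3* mRNA overlapped between the groups, with 50, 7 and 25 UMIs in replicates 1, 2 and 3 of Atf3 high, against 35, 0 and 8 in Atf3 low. *Ndufs6* held 2, 0 and 3 against 0, 0 and 0 UMIs, which checks no label because all 6 libraries carry the knockdown. Atf3 high replicate 2 stood apart, with 8 UMIs each of the Y-linked *Eif2s3y* and *Ddx3y* and none of *Xist*, although labelled female, and the fitted values without it are given for the role groups and for the members with the smallest p.

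Promoter sequence is shown for 3 members. The study's transcription factor binds the ATF/CRE element TGACGTCA, and *Eef2* was the member whose window held it. *Eif2a* was the member with a window and an unadjusted p under 0.05 in edgeR, and *Eif4e* was added for its role. Of the 64 members, 50 matched the promoter table of RefSeq (build GRCm38.p6, 250 bases before to 50 after each start). *Eif6* and *Eif4ebp1* were not among them and were not searched. The full element was in 1 of 50 members (2.00%), against 2.03% of the 27025 genes with a promoter. Its first 6 bases, TGACGT, were in 9 of 50 (18.0%) against 8.37% of all genes, and the E-box CACGTG was in 13 of 50 (26.0%) against 8.09%. Both strands were searched, every full element also counts as TGACGT, and the members' windows had a median GC content of 62.0%, against 52.7% over all windows; the part of base composition in these shares was not tested. Each line below runs from 120 bases before the start to 30 bases after it, on the plus strand, with the matches in capitals. *Eef2* is at chr10:81176511-81176660 and holds an E-box and the full element. *Eif2a*, the member with the lowest p among those lower in Atf3 high, is at chr3:58525701-58525850 and holds the 6-base element on the opposite strand, while *Eif4e*, the cap-binding protein, is at chr3:138527148-138527297 (1 of its 2 windows) and holds an E-box.
Eef2: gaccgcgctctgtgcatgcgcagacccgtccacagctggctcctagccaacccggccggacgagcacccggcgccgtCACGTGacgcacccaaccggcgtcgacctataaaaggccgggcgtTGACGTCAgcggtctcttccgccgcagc
Eif2a: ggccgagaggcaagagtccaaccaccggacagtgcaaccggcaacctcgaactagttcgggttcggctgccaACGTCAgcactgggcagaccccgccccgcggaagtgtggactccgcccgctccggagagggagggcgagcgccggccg
Eif4e: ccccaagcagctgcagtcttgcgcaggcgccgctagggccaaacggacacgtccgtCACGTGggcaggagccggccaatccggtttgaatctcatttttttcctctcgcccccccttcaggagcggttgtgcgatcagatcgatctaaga
A match describes letters in the window and not a bound site.

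The members as a whole took a larger share of the library in Atf3 high. They held 0.714%, 0.726% and 0.582% of the UMIs in replicates 1, 2 and 3 of Atf3 high, against 0.482%, 0.523% and 0.507% in Atf3 low, so that the groups did not overlap with Atf3 high replicate 2 or without it. The means were 0.674% ± 0.0801 and 0.504% ± 0.0208 (SD, n = 3). Mitochondrially encoded RNA went the other way between the groups, at 17.1%, 21.2% and 16.9% of the UMIs in Atf3 high against 21.9%, 21.9% and 22.6% in Atf3 low. Within Atf3 high, replicate 2 had the largest of both shares and replicate 3 the smallest. Of the nuclear UMIs alone, the members held 0.862%, 0.922% and 0.700% against 0.618%, 0.670% and 0.655%, again without overlap. The libraries with the largest member shares, Atf3 high replicates 1 and 2, were also those with the lowest cardiomyocyte marker levels (22724 and 22807 CPM) and the highest fibroblast marker levels (5009 and 2540 CPM), and the part of these in the result was not tested. In areas of tissue, a larger share of cells rich in a messenger and more of it per cell cannot be told apart.

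After TMM normalization over the tested genes, which sets the libraries level on genes near the middle of the changes, the groups overlapped. The summed level of the 52 tested members was 6600, 6988 and 5594 CPM in Atf3 high against 5465, 5423 and 5625 CPM in Atf3 low. Atf3 high replicate 3 thus lay below Atf3 low replicate 3, and the means were 6394 ± 719 and 5504 ± 107 CPM (SD, n = 3).

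**Figure D1:**
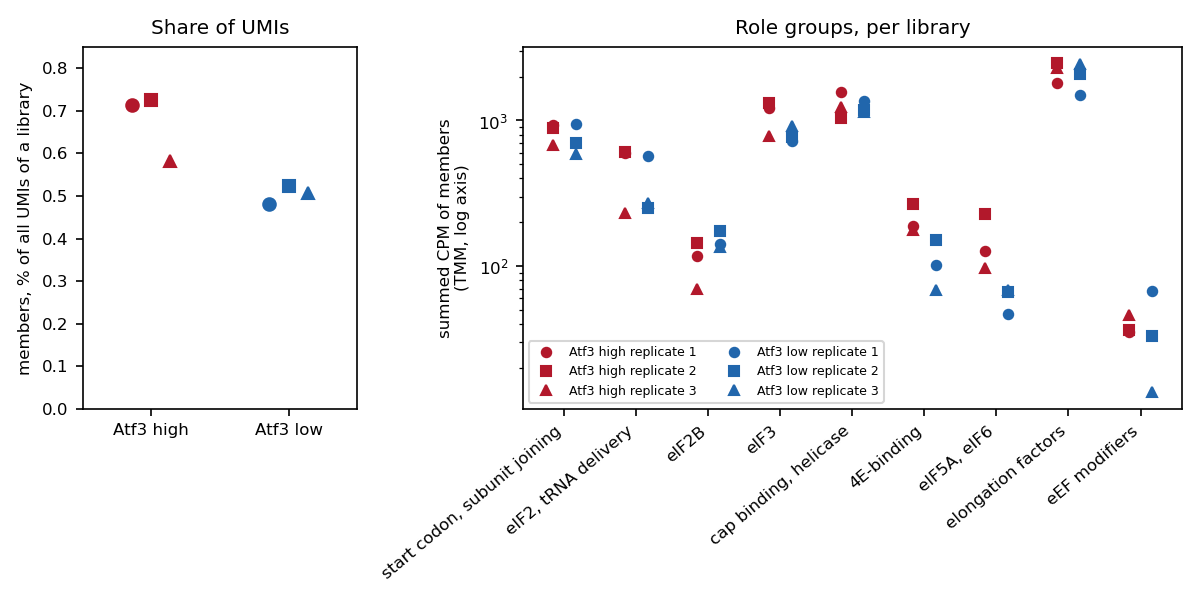
The left panel plots the members' percentage of all UMIs in each library (points, 3 per group), and the right panel the summed TMM-normalized CPM of the tested members of each role group per library on a log axis. The share of UMIs is at least 0.582% in every Atf3 high library and at most 0.523% in every Atf3 low library. Most role groups overlap. The sums of the 4E-binding genes and of the eIF5A and eIF6 pair do not, although each of their genes overlaps on its own.

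Member by member, no gene was called. At an adjusted p under 0.05 in edgeR's quasi-likelihood test, 0 of 52 members passed, against 7 of 7665 genes (0.0913%), and the smallest adjusted p of a member was 0.649. At an unadjusted p under 0.05, 2 members were higher and 1 was lower in Atf3 high, against 444 genes (5.79%) in both directions, 272 (3.55%) higher and 172 (2.24%) lower. Those were *Eif6* and *Eif4ebp1* (higher) and *Eif2a* (lower). DESeq2 gave no adjusted p for 34 of the 52 members, nor for 6093 of the 7665 genes; it called 0 of the other 18 members and had 1 of the 52 at an unadjusted p under 0.05. Limma-trend on log2(CPM + 4) also called 0. The groups did not overlap in normalized level for 4 members that were higher, against 7.07% of all genes, and for 1 that was lower, against 3.89%.

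The members' log2 fold changes (Atf3 high over Atf3 low) lay mostly above 0. Of the 52, 36 (69.2%) were above 0, against 55.2% of all genes tested, and their median was 0.34, against 0.11 over all genes. Relative to that median of all genes, 34 members were above and the members' median lay 0.23 higher. Among the alternatives run, this gap was smallest under 3. It was 0.065 without Atf3 low replicate 2 (medians of 0.24 and 0.18, with 29 members above that of all genes) and 0.12 without Atf3 low replicate 3 (0.18 and 0.067, with 30 above). With no filter on low counts it was 0.064 (0.41 and 0.35), and 33 of 64 members lay above the median of all genes. Leaving out each library in turn gave medians of the members between 0.18 and 0.51. Scaling by library size alone raised the median of all genes by 0.20, to 0.31, and that of the members to 0.54, which left their difference at 0.23. Under that scaling 79.8% of the genes at an unadjusted p under 0.05 were higher in Atf3 high, against 61.3% with TMM. Without Atf3 high replicate 2, 35 members were above 0 and 29 above the median of all genes, the medians were 0.30 and 0.12, and no member had an unadjusted p under 0.05 in edgeR.

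**Figure D2:**
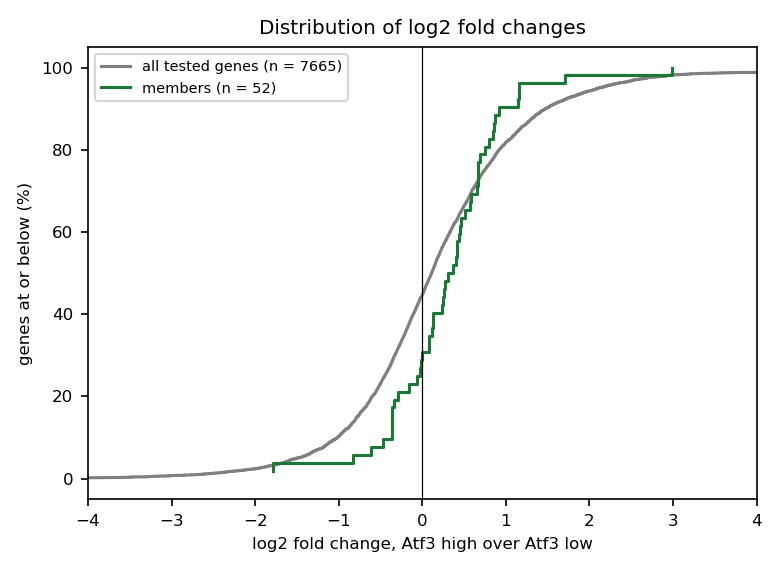
Cumulative distribution of the log2 fold change (Atf3 high over Atf3 low, x axis from −4 to 4) for all 7665 tested genes (grey) and the 52 members (green); the y axis is the percentage of genes at or below each value. The members' curve lies to the right of the other over its lower part, crossing 0 at a smaller percentage of genes, and their medians are 0.34 and 0.11.

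The tested members held between 11 and 880 UMIs over the 6 libraries, with a median of 56. Standard errors of the log2 fold change ran from 0.37 to 1.43, with a median of 0.74, and 13 members had one above 1. In Atf3 low replicate 3, 19 of the 64 members had no UMI.

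**Figure D3:**
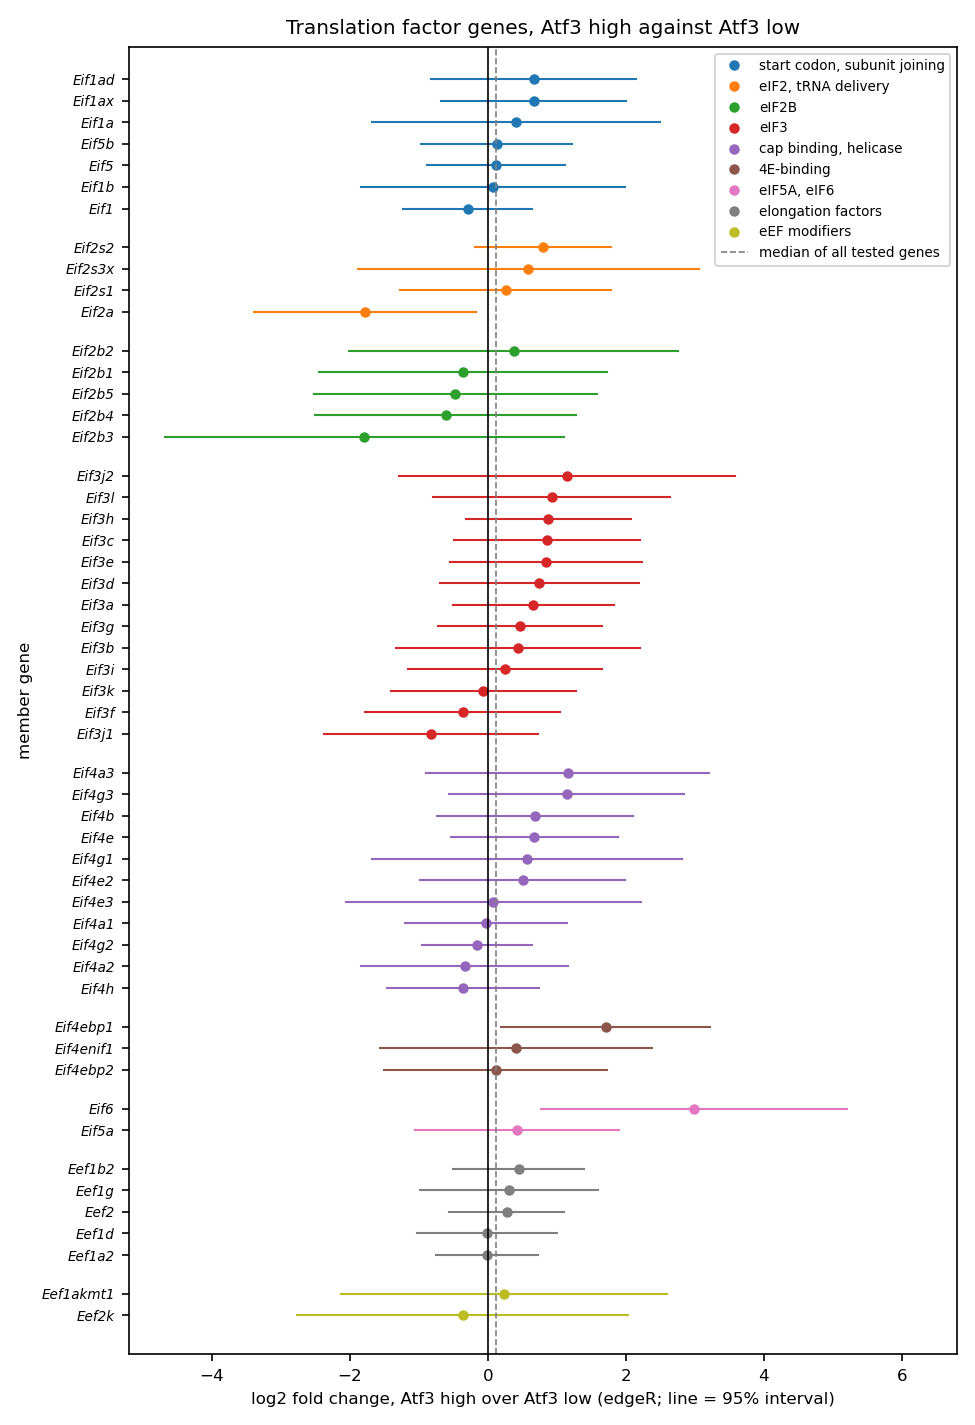
Log2 fold change (Atf3 high over Atf3 low, points) of each of the 52 tested members with its 95% interval from edgeR (lines), in groups by role; the solid line marks 0 and the dashed line the median of all tested genes, 0.11. The intervals of *Eif6* and *Eif4ebp1* lie above 0 and that of *Eif2a* below it, and the other 49 include 0.

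Among the factors that recognize the start codon and join the ribosomal subunits, 6 of 7 were above 0, with a median of 0.13, and none passed either threshold; without Atf3 high replicate 2 the median was 0.22 and 5 were above 0, and without Atf3 high replicate 1 it was −0.06 and 3 were. *Eif1ax* encodes eIF1A, which keeps the scanning complex open, and held 15, 13 and 27 UMIs in replicates 1, 2 and 3 of Atf3 high, against 18, 10 and 0 in Atf3 low (log2 fold change 0.66, standard error 0.67). *Eif1ad*, which carries an eIF1A-like domain, held 22, 8 and 12 against 8, 12 and 0 UMIs and had the same log2 fold change of 0.66 (standard error 0.74). Both overlapped between the groups, and both had their only zero in Atf3 low replicate 3. *Eif1ad* shares its locus with *Banf1* on the other strand, which held 127 UMIs to its 62. *Eif1*, which guards the fidelity of start codon choice, was at −0.29 (standard error 0.46), and *Eif5*, the GTPase-activating partner of eIF2, and *Eif5b*, which joins the subunits, were at 0.12 and 0.13.

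In the eIF2 and tRNA delivery group, 3 of 4 tested genes were above 0, with a median of 0.42. Without Atf3 high replicate 2 the median was 0.01 and 2 were above 0, and without Atf3 low replicate 1 the median was 1.07. The eIF2 subunits showed different spreads. *Eif2s2* (eIF2 beta) was at 493, 386 and 135 CPM in Atf3 high against 256, 117 and 204 CPM in Atf3 low, with 338 ± 184 against 192 ± 70.4 (SD, n = 3). Atf3 high replicates 1 and 2 lay above all of Atf3 low and replicate 3 within it, and the log2 fold change was 0.80 (95% interval −0.19 to 1.78). *Eif2s1*, whose product is the alpha subunit that stress kinases phosphorylate, held 15, 16 and 3 UMIs against 22, 2 and 3. Its log2 fold change of 0.26 (standard error 0.76) turned to −0.67 without Atf3 high replicate 2. *Eif2s3x* (eIF2 gamma), the X-linked partner of the Y-linked gene left out by the rule, held 3, 1 and 7 against 3, 2 and 0 UMIs.

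*Eif2a* (ENSMUSG00000027810, chromosome 3, 58525821 to 58557501, plus strand, GRCm38) encodes eIF2A, a separate factor that can deliver initiator tRNA and is not the alpha subunit of eIF2. It was at 10.2, 12.1 and 51.2 CPM in Atf3 high against 142, 100 and 27.2 CPM in Atf3 low, on 2, 1 and 11 against 21, 12 and 2 UMIs. Atf3 high replicate 3 and Atf3 low replicate 3 crossed, so the groups overlapped. This gave a log2 fold change of −1.78 (standard error 0.80, 95% interval −3.40 to −0.17), with an edgeR adjusted p of 0.810, and −1.56 without Atf3 high replicate 2. *Serp1* overlaps it on the other strand and held 11, 2 and 11 against 16, 1 and 3 UMIs; since the sources used here do not say whether counting used the strand, reads of the pair may not be separated. *Eif2d*, another tRNA-delivery factor, held 5 UMIs in all and was not tested.

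The 5 subunits of eIF2B, which reloads eIF2 with GTP, had 1 value above 0 and 4 below, and their median of −0.47 (−0.55 without Atf3 high replicate 2) was the lowest of the role groups. *Eif2b1* (the alpha subunit, which senses phosphorylated eIF2) was the only member lower in Atf3 high without overlap, at 25.4, 24.1 and 18.6 CPM against 27.0, 33.4 and 27.2. These are 5, 2 and 4 against 4, 4 and 2 UMIs, and the log2 fold change was −0.36 (standard error 1.03). *Eif2b3* held 3, 0 and 0 UMIs against 2, 6 and 0, a ratio of 3.86 in favour of Atf3 low with a counting interval of 0.926 to 22.6. *Eif2b4* was at −0.61 (standard error 0.94), and *Snx17* on the other strand held 54 UMIs to its 29. All 5 intervals included 0, and with library size or RLE scaling 4 of the 5 were again below it.

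The 4 eIF2 alpha kinases were too sparse to test, with 27 UMIs in all. *Eif2ak1* (HRI, which relays heme shortage and mitochondrial stress) held 2, 1 and 2 UMIs in Atf3 high and none in Atf3 low. *Eif2ak2* (PKR, the double-stranded RNA sensor) held 2, 2 and 0 against 1, 2 and 0, and *Eif2ak3* (PERK, the kinase of the endoplasmic reticulum) 0, 0 and 4 against 2, 0 and 0. *Eif2ak4* (GCN2, which reads uncharged tRNA) held 5, 1 and 1 against 2, 0 and 0. A difference between the groups was not detectable at this depth for any of the 4.

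The eIF3 complex, the scaffold on the small subunit, was the largest role group, and 10 of its 13 tested subunits were above 0 with a median of 0.66 (0.57 without Atf3 high replicate 2); none passed either threshold. Its summed level was 1225, 1315 and 787 CPM in Atf3 high against 728, 776 and 912 CPM in Atf3 low, with Atf3 high replicate 3 within the range of Atf3 low. With library size scaling 11 of the 13 were above 0. *Eif3h* was the one subunit without overlap, at 107, 157 and 140 CPM against 67.4, 91.8 and 54.5 CPM, or 134 ± 25.5 against 71.2 ± 18.9 (SD, n = 3). All 3 Atf3 high libraries lay above all 3 of Atf3 low, with a log2 fold change of 0.87 (95% interval −0.32 to 2.07) and an edgeR adjusted p of 0.965. Without Atf3 high replicate 2 it was 0.77. *Eif3c*, a core subunit, held 29, 10 and 11 UMIs against 5, 9 and 5 (log2 fold change 0.86, standard error 0.67). *Eif3j1* and *Eif3j2* encode near-identical proteins and stood at −0.83 and 1.15; since reads could be split between them, they were also summed, which gave −0.30 (standard error 0.66). *Eif3m* had 9 UMIs and its pseudogene *Gm7658* 39, and their sum was at −0.61 (standard error 0.77).

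In the cap-binding and helicase group, 7 of 11 were above 0, with a median of 0.51, and none passed either threshold. That median was 0.09 without Atf3 high replicate 2, where 8 were above 0, and 0.13 on leaving out Atf3 low replicate 3. *Eif4e*, which binds the cap, was at 142, 72.4 and 135 CPM in Atf3 high against 87.6, 66.7 and 68.1 CPM in Atf3 low. Atf3 high replicate 2 lay within the range of Atf3 low, and the log2 fold change was 0.67 (95% interval −0.54 to 1.88). The scaffold genes *Eif4g3* and *Eif4g1* and the helicase cofactor *Eif4b* did not overlap between the groups. These 3 of 11 were higher in Atf3 high, against 7.07% of all genes. *Eif4g3* was at 55.9, 60.3 and 83.8 CPM against 40.4, 41.7 and 0 CPM (log2 fold change 1.14, standard error 0.84), and the zero in Atf3 low replicate 3 allows up to 40.9 CPM. *Eif4b* held 20, 6 and 15 UMIs against 9, 7 and 2 (0.69, standard error 0.70). *Eif4g1* held 4, 2 and 7 against 3, 2 and 1 UMIs (0.56, standard error 1.11). Its groups were apart by less than 1 UMI, at 20.3 CPM in Atf3 high replicate 1 against 20.2 CPM in Atf3 low replicate 1. In Atf3 high replicate 1, 1 UMI is 5.08 CPM. Of the eIF4A helicases, *Eif4a1* was at 106 ± 33.8 against 107 ± 28.7 CPM (SD, n = 3), with a log2 fold change of −0.03 (95% interval −1.21 to 1.14) that turned positive with library size scaling (0.16). *Eif4a2* was at −0.34 and *Eif4a3*, which sits in the exon junction complex on spliced messengers, at 1.16 (standard error 1.02).

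The 3 genes that hold eIF4E away from translation were all above 0, with a median of 0.41 (0.39 without Atf3 high replicate 2, and down to 0.16 on leaving out Atf3 low replicate 2). *Eif4ebp1* (ENSMUSG00000031490, chromosome 8, 27260329 to 27276674, plus strand, GRCm38) encodes 4E-BP1, the mTORC1 substrate that blocks eIF4E, and is a known target gene of ATF4. It was at 112, 205 and 65.2 CPM in Atf3 high against 20.2, 83.4 and 0 CPM in Atf3 low, on 22, 17 and 14 against 3, 10 and 0 UMIs. Atf3 low replicate 2 lay above Atf3 high replicate 3, so the groups overlapped, and the means were 127 ± 71.3 and 34.5 ± 43.5 CPM (SD, n = 3). This gave a log2 fold change of 1.71 (standard error 0.75, 95% interval 0.19 to 3.23), with an edgeR adjusted p of 0.794, and 1.25 without Atf3 high replicate 2. Its paralogue *Eif4ebp2* held 7, 2 and 18 against 7, 6 and 3 UMIs (log2 fold change 0.11, 95% interval −1.50 to 1.73), and its sign turned with limma-trend (−0.11). The difference between the paralogues was not tested. *Eif4enif1*, the carrier of eIF4E into the nucleus and processing bodies, was at 0.41 (standard error 0.98), with *Drg1* on the other strand at 24 UMIs to its 26. As a group, these 3 genes summed to 188, 266 and 177 CPM against 101, 150 and 68.1 CPM, without overlap. Each of the 3 overlapped on its own, and how often sums of other genes separate was not tested.

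*Eif6* (ENSMUSG00000027613, chromosome 2, 155819832 to 155826925, minus strand, GRCm38) had the smallest p of the members. Its product binds the large ribosomal subunit, takes part in its making and keeps it from joining the small subunit too early. It held 13, 15 and 2 UMIs in Atf3 high against 0, 2 and 1 in Atf3 low, or 66.1, 181 and 9.32 against 0, 16.7 and 13.6 CPM. Atf3 high replicates 1 and 2 stood above every Atf3 low library and replicate 3 lay among them, so the means of 85.5 ± 87.5 and 10.1 ± 8.88 CPM (SD, n = 3) had a wide spread. The summed UMIs were 30 and 3. Divided by the TMM-scaled library sizes of each group, they gave a ratio of 6.91 with a counting interval of 2.15 to 35.4. That interval leaves out the spread between libraries. The fit gave a log2 fold change of 2.99 (standard error 1.10, 95% interval 0.77 to 5.21), with an edgeR adjusted p of 0.649. Without Atf3 high replicate 2 it was 1.92, and the median of *Eif6* and *Eif5a* was 1.24, against 1.71 with that library. *Eif5a*, the hypusine-bearing factor that eases peptide bonds at prolines, was at 65.9 ± 20.6 against 50.6 ± 3.68 CPM (log2 fold change 0.42, standard error 0.73).

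**Figure D4:**
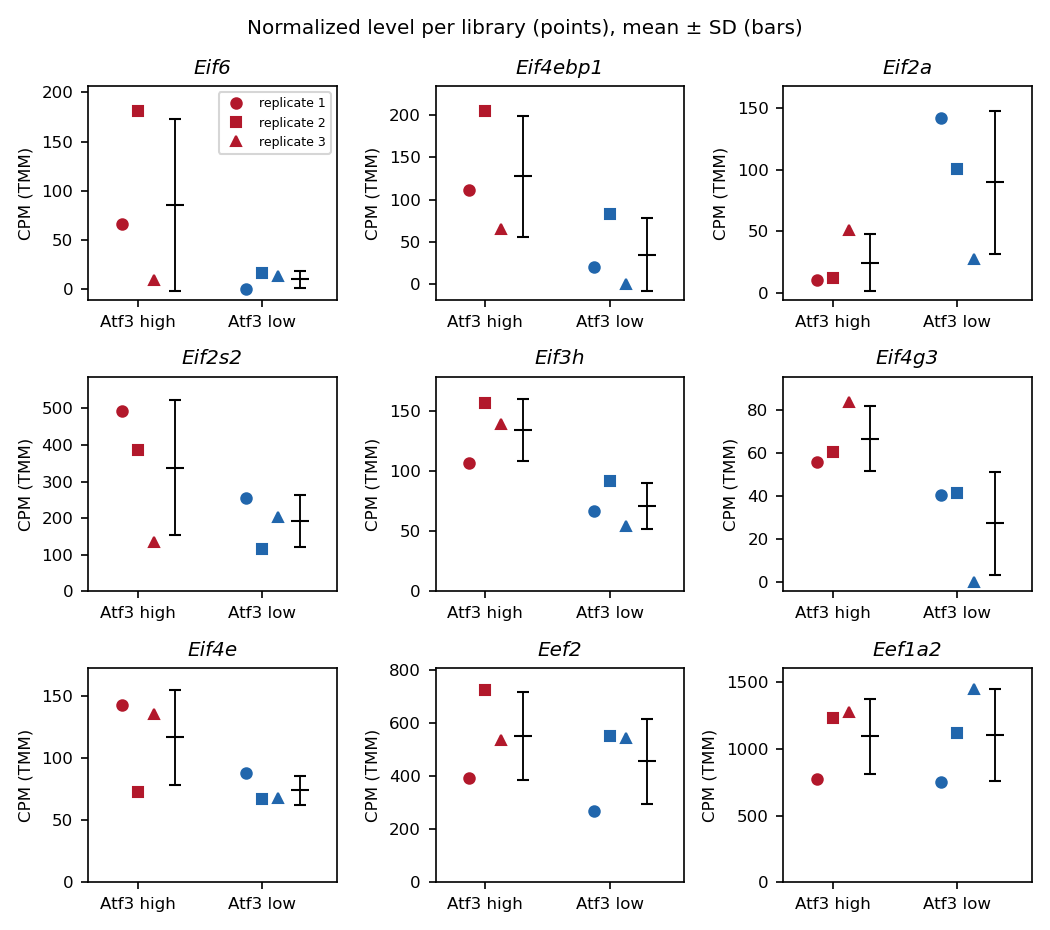
TMM-normalized CPM of 9 members per library (points shaped by replicate, red for Atf3 high and blue for Atf3 low) with the mean ± SD of each group (black bars, n = 3); each panel has its own y axis. *Eif3h* and *Eif4g3* have all Atf3 high points above all Atf3 low points, *Eif6*, *Eif4ebp1* and *Eif2a* overlap through replicate 3 or replicate 2, and *Eef2* and *Eef1a2* overlap throughout.

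The 5 tested elongation factors had log2 fold changes between −0.01 and 0.45, with a median of 0.27, and their groups overlapped; with library size scaling all 5 were above 0. The median was 0.04 without Atf3 high replicate 2, 0.11 without Atf3 high replicate 3 and −0.01 on leaving out Atf3 low replicate 1. *Eef1a2*, the eEF1A form of heart, skeletal muscle and brain, was at 772, 1231 and 1276 CPM in Atf3 high against 755, 1118 and 1444 CPM in Atf3 low. Its means of 1093 ± 279 and 1105 ± 345 CPM (SD, n = 3) gave a log2 fold change of −0.01 (95% interval −0.75 to 0.73), which was 0.18 with library size scaling. *Eef1a1*, the widespread form, was not analysed here. *Eef2*, the translocase, whose promoter is printed above, was at 391, 724 and 536 CPM against 270, 551 and 545 CPM, with a log2 fold change of 0.27 (95% interval −0.56 to 1.11) that was 0.04 without Atf3 high replicate 2. In the exchange complex that recharges eEF1A, *Eef1b2* was at 0.45 (standard error 0.47), *Eef1g* at 0.31 and *Eef1d* at −0.01. *Eef1b2* shares sequence with the pseudogene *Gm43712*, which took 143 UMIs, or 40.2% of their sum; summed, the log2 fold change was 0.39 (standard error 0.43). On the other strand it meets *Ndufs1*, with 476 UMIs to its 213.

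Of the 7 genes that modify elongation factors, 2 were tested, with a median of −0.06 (−0.01 without Atf3 high replicate 2). *Eef2k*, the kinase that inhibits eEF2, held 2, 1 and 5 UMIs against 2, 4 and 1 (log2 fold change −0.37, standard error 1.19). *Eef1akmt1*, a lysine methyltransferase of eEF1A, held 5, 2 and 5 against 8, 0 and 0 (0.24, standard error 1.17). The other 5 (*Eef1akmt2*, *Eef1akmt3*, *Eef1akmt4*, *Eef1aknmt* and *Eef2kmt*) held between 2 and 9 UMIs, and *Eef1e1*, a scaffold protein of the synthetase complex, held 9.

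Near-identical stretches in other genes bore on several of these values. In the annotation, 20 members had a transcript matching another gene at 95% identity or more over at least 200 bases, and for 9 of them such a gene held UMIs. For *Eif1* these came to 94 UMIs beside its own 195, and the sum was at −0.48 (standard error 0.43). Of the 94, 81 belonged to *Emd*, a separate protein-coding gene, so this sum is not a value of *Eif1* alone. Genes on the other strand held UMIs for 14 members and genes on the same strand for 2.

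Other genes of the translation pathway, from lists written for this comparison, are given by their counts and medians, and none passed an adjusted p of 0.05 in edgeR. Over all genes tested, 55.2% were above 0, with a median of 0.11. At an unadjusted p under 0.05 in edgeR, 3.55% were higher and 2.24% lower. Without overlap, 7.07% were higher and 3.89% lower. Of 8 tested genes of termination and recycling, 7 were above 0 (median 0.74), among them *Denr*, which recycles small subunits and reinitiates (9, 3 and 22 UMIs against 2, 2 and 2), and *Ltn1*, the ligase of stalled ribosomes (5, 4 and 7 against 2, 0 and 0, a ratio of 5.53 with a counting interval of 1.30 to 49.6). Of 11 genes that bind the poly(A) tail or the messenger, 7 were above 0 (median 0.16). *Pabpc4*, a poly(A)-binding protein, was at 409 ± 60.3 against 260 ± 61.2 CPM without overlap (SD, n = 3), and *Larp1*, the mTORC1-linked repressor of terminal oligopyrimidine messengers, was at 0.82 (standard error 0.63). In neither list did a gene reach an unadjusted p under 0.05.

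The cytosolic aminoacyl-tRNA synthetases had 13 of 19 above 0 (68.4%, against 55.2% of all genes) and a median of 0.71. Of them, 2 were higher at an unadjusted p under 0.05 in edgeR, and 3 did not overlap and were higher. *Gars*, which charges glycine tRNA, held 64, 16 and 23 UMIs in Atf3 high against 8, 5 and 4 in Atf3 low, or 325, 193 and 107 CPM against 53.9, 41.7 and 54.5 CPM. Every Atf3 high library lay above every Atf3 low library, and the fitted difference was 2.05 on the log2 scale (standard error 0.60, edgeR adjusted p = 0.462). *Lars*, for leucine, held 17, 17 and 11 against 4, 5 and 1 UMIs, also without overlap (1.89, standard error 0.77; 1.25 without Atf3 high replicate 2).

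Genes of the integrated stress response and the eIF2 alpha phosphatases had 9 of 11 above 0 (median 0.82), with 2 higher at an unadjusted p under 0.05. *Asns* (asparagine synthetase) held 20, 33 and 5 UMIs against 9, 5 and 0 (2.06, standard error 0.77), and without Atf3 high replicate 2 its log2 fold change was 0.73 (standard error 0.95). *Chac1*, which degrades glutathione, held 27, 2 and 1 against 0, 0 and 1, so that 1 library carried nearly all of its UMIs; the ratio of 20.7 had a counting interval of 3.45 to 846. Both overlapped between the groups. Of the 11 genes, 4 others did not overlap and were higher in Atf3 high, against 7.07% of all genes, and 0 were lower, against 3.89%. Of 18 genes of mTORC1 and the cap kinases, 12 were above 0 (median 0.15) and none passed either threshold. In this list 3 genes did not overlap and were higher, against 7.07% of all genes, and 1, *Rheb*, was lower, against 3.89%. The 2 genes of smallest p were both lower. *Rheb*, the GTPase that activates mTORC1, was at −1.37 (standard error 0.72), on 10, 5 and 3 UMIs against 18, 8 and 9. *Rps6kb2*, an S6 kinase, was at −1.98 (standard error 1.08).

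Of the 4 tested genes that modify factors by hypusine, diphthamide or methyl groups, all were above 0 (median 0.53), with *Dph3* at 0.43 (standard error 0.69) and *Dph6* at 13 against 3 UMIs, a ratio of 3.00 with a counting interval of 0.823 to 16.4. Of 6 mitochondrial translation factors, 4 were above 0 (median 0.51). *Mtif2*, the mitochondrial initiation factor, held 4, 1 and 7 against 1, 0 and 0 UMIs, a ratio of 8.29 with a counting interval of 1.23 to 355, and *Tufm*, the mitochondrial elongation factor Tu, was at −0.99 (standard error 1.05). Neither list had a gene at an unadjusted p under 0.05. Without Atf3 high replicate 2 the medians were 0.72 (termination and recycling), 0.41 (poly(A) tail and messenger), 0.59 (synthetases), 0.61 (integrated stress response), 0.21 (mTORC1 and cap kinases), 0.55 (factor modification) and 0.52 (mitochondrial factors). Without Atf3 high replicate 1 that of the mitochondrial factors was 0.14 and that of the poly(A) tail and messenger genes −0.07.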

How the data were processed

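The authors deposited 1 table of raw counts, the number of UMIs of each gene in each of the 6 libraries. Reads from a NovaSeq6000 were aligned by the authors with HISAT2 (version 2.1.0) against GRCm38. The submitters' processing notes also name UMI-tools (version 1.0.0) and featureCounts (version 1.6.4). The strand setting, the annotation and the handling of reads with several matches are not given in the sources used here.

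Groups and replicate numbers follow the labels. The 7665 genes that reached 10 UMIs in total were scaled by TMM and tested by glmQLFit and glmQLFTest of edgeR (version 4.0.16, R version 4.3.3), two-sided, with Benjamini-Hochberg adjustment over all of them, in place of the study's test on iDEP values. CPM use the TMM-scaled library size of the tested genes, except for cell type markers, which use all UMIs of a library. Standard errors are the fold change over the root of F, intervals are at 95%, and counting intervals are exact and cover counting error only. Every ratio given with a counting interval compares summed UMIs divided by the summed TMM-scaled library sizes of each group. Within groups, every pair of libraries differed beyond sampling noise (between 3.55 and 5.07 chi-square units per degree of freedom), and the common biological coefficient of variation was 53.6%.

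The members and lists were chosen with earlier results of these data known. Genes named were anchors chosen by role, the 2 of smallest p in each role group and list, the members without overlap, and, added after their values were seen, *Eif1*, genes that share a locus or sequence with a member, *Eif5*, *Eif5b*, *Eif2s3x*, *Eif2d*, *Eef1d*, *Eef1g* and the untested members. Positions and copies came from GENCODE and promoters from RefSeq. The scripts were tested on simulated data. Alternatives were DESeq2 (version 1.42.0), limma-trend (version 3.58.1), other scalings and filters, a replicate block and leaving out each library.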

Additional observations from a re-analysis of the deposited data

Results flagged for a closer look

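*Eif2s3y*, the Y-linked partner of the member *Eif2s3x*, lies outside the rule and was not compared between the groups. It held 8 UMIs in Atf3 high replicate 2 and none in the other 5 libraries, all labelled female. The same library held 8 UMIs of *Ddx3y*, of which Atf3 low replicate 1 held 1, and no UMI of *Xist*, which held between 3 and 26 in each of the others. Atf3 low replicate 2, which shares its number, held 13 UMIs of *Xist* and none of *Eif2s3y* or *Ddx3y*. By these counts, that pair does not look like areas of the same heart. The part of this library in the members' values is given by the fits without it, where *Eif6* was at 1.92, *Eif4ebp1* at 1.25 and *Eif2a* at −1.56 on the log2 scale.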

How the results depend on the processing

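Wherever an alternative gave a member an adjusted p, it was not under 0.05; DESeq2 gave none for 34 of the 52 tested members, *Eif6*, *Eif4ebp1* and *Eif2a* among them. Over the alternatives that gave one, the adjusted p of these 3 ranged from 0.150 to 1.00, from 0.339 to 1.00 and from 0.341 to 1.00. Over all alternatives that tested them, DESeq2 included, an unadjusted p under 0.05 held in 10 of 12, 8 of 13 and 6 of 12. Of 511 log2 fold changes of 41 named genes, 490 kept their direction and 21 changed sign, 15 of them on leaving out a library; the cause was not tested.

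Library size scaling gave 410 genes higher and 104 lower at an unadjusted p under 0.05, 0 members lower, 8 of 52 members without overlap higher (15.4%, against 10.3% of all genes) and 0 lower (against 2.45%), *Eef1a2* at 0.18 and *Eif4a1* at 0.16. RLE scaling had 2 members without overlap lower (3.85%, against 4.28%). DESeq2 called 12 of the 1572 genes with an adjusted p, with 127 higher at an unadjusted p under 0.05, and had 1 member higher and 0 lower. Limma-trend called 3 genes and put *Eif4ebp2* at −0.11. With no filter, 7 of 64 members did not overlap higher (10.9%, against 4.67%) and 0 lower (against 1.84%), *Eef1a2* was at 0.060 and *Eif4a1* at 0.030. With filterByExpr, which tests fewer genes, 27 members were tested (*Eif6* and *Eif2a* were not), 19 were above 0, 0 were higher and 0 lower at an unadjusted p under 0.05, 2 did not overlap higher (7.41%, against 6.04%) and 0 lower (against 6.54%), and all genes gave 60 higher and 59 lower.

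With the replicate number as a block, 24 genes and 0 members were called and *Eif4ebp2* was at −0.075. The deviations of same-numbered libraries correlated across genes at 0.109, 0.0146 and 0.0968, which is not above 0.1 in every pair. Each library correlated best with its own number, a hint from the data and not the design. Values this small cannot decide whether the numbers pair the libraries, and the main fit used no block.

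Leaving out each library in turn gave between 1 and 18 genes called, between 181 and 364 higher at an unadjusted p under 0.05, between 0 and 3 members higher and 0 to 1 lower, and between 3 and 15 members without overlap higher (5.77% to 28.8%, against 10.7% to 14.5% of all genes) and 1 to 4 lower (1.92% to 7.69%, against 5.61% to 9.5%). The log2 fold change ran from −0.23 to 0.23 for *Eef1a2*, −0.28 to 0.13 for *Eif4a1*, −0.63 to 0.017 for *Eif4a2*, −0.67 to 1.65 for *Eif2s1*, −0.57 to 0.36 for *Eif4ebp2*, −0.0057 to 0.47 for *Eef2*, −0.85 to 0.18 for *Eef2k* and −0.36 to 4.79 for *Eef1akmt1*. Without Atf3 high replicate 2, 0 members had an unadjusted p under 0.05 and 1 gene was called.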
